A study of Mus musculus with 95 samples.

Results

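The 9 genes described here, Rgs2, Rgs4, Rgs6, Rgs7, Rgs8, Rgs10, Rgs14, Rgs16 and Rgs20, encode regulators of G protein signalling, the RGS proteins. They were taken by symbol and are 9 of 21 Rgs genes among the 55471 features of the deposited count table. All 9 had enough counts to be tested in each comparison. The set was chosen from earlier results of these data, which had already shown lower Rgs4 in dependent than in naïve mice, in the purified RNA and in the whole tissue. The comparison of dependent with naïve mice is therefore given as a description, and a gene that passed the threshold there is not independent evidence of its direction.

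The study measured RNA in the nucleus accumbens, a ventral striatal region of reward circuits, in 49 mice of 3 alcohol histories. Dependent mice had 5 rounds of CIE (chronic intermittent ethanol exposure) within CIE-2BC, which adds voluntary drinking from a choice of bottles, non-dependent mice had the drinking part (2BC) alone, and naïve mice had no ethanol. Every mouse, naïve controls included, was of the line JD130Htz on a B6;FVB background and carried Tg(Aldh1l1-EGFP/Rpl10a), in which regulatory sequence of the astrocyte gene Aldh1l1 drives a ribosomal protein fused to EGFP. Pulling down the tagged ribosomes gave an IP library enriched for RNA being translated in astrocytes. An aliquot kept beforehand gave an input library of the bulk tissue of the same mouse. There were 18 dependent (10 female, 8 male), 13 non-dependent (8 female, 5 male) and 15 naïve IP libraries (8 female, 7 male). The input libraries numbered 18 dependent (10 female, 8 male), 15 non-dependent (8 female, 7 male) and 16 naïve (8 female, 8 male). Ages of the mice are not given in the sources used here.

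A G protein-coupled receptor switches on a G protein by loading its alpha subunit with GTP. RGS proteins speed the hydrolysis of that GTP and so shorten the signal. The family falls into subfamilies. Rgs2, Rgs4, Rgs8 and Rgs16 belong to the small R4 type, in which Rgs2 acts mainly on Gq and the others on Gi, Go and Gq. Rgs6 and Rgs7 belong to the R7 type, which is stable only when bound to the beta subunit Gnb5 and is held at membranes by Rgs7bp or Gpr158. Rgs10 and Rgs14 are of the R12 type, in which Rgs14 also carries Ras-binding and GoLoco domains, and Rgs20 is of the RZ type, known for its action on Gz. In striatum, RGS proteins of medium spiny neurons act downstream of dopamine, muscarinic and opioid receptors.

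On GRCm38, with gene spans from GENCODE M21, 6 of the 9 genes lie on chromosome 1. Rgs4 spans 169741477 to 169747642 on the minus strand and Rgs2 spans 143999338 to 144004161 on the minus strand. Rgs8 (153653025 to 153700323, plus strand) and Rgs16 (153740349 to 153745468, plus strand) are near neighbours. Rgs7 spans 175059087 to 175492500 and Rgs20 spans 4909576 to 5070285, both on the minus strand. Rgs10 lies on chromosome 7 (128373621 to 128418758, minus strand), Rgs6 on chromosome 12 (82588292 to 83162056, plus strand) and Rgs14 on chromosome 13 (55369732 to 55384687, plus strand).

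The sequences just before the starts of Rgs4 and Rgs2 are shown because these are the R4 genes that were lower in the IP of dependent mice. They are the 250 bases before each RefSeq start (GRCm38.p6, minus strand, written 5′ to 3′), chr1:169747643-169747892 for Rgs4 and chr1:144004150-144004399 for Rgs2. Capitals mark matches, on either strand, to TGACG (the core of the cyclic AMP response element), to TATAAA (the TATA box), to CCAAT (the CCAAT box) or to GGGCGG (the GC box). Overlapping matches were allowed.
Rgs4: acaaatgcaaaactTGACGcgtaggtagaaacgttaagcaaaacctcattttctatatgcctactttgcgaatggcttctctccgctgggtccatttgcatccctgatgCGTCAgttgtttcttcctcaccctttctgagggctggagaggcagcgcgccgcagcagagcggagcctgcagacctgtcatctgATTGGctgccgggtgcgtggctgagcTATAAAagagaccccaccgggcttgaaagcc
Rgs2: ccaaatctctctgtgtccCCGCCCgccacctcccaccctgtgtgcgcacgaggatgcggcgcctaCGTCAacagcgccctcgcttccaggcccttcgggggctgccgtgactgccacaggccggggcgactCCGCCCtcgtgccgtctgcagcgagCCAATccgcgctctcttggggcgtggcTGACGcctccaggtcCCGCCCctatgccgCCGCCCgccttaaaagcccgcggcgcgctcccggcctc

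The Rgs4 window has 2 TGACG matches, beginning 236 and 141 bases before the start, TATAAA at 31 bases, a CCAAT match at 57 bases and no GGGCGG, with a GC content of 53.6%. The Rgs2 window also has 2 TGACG matches, at 185 and 67 bases, and a CCAAT match at 94 bases. It differs in having 4 GGGCGG matches, no TATAAA and a GC content of 72.4%. Of 32851 windows of this length before RefSeq starts, 17.8% hold TGACG, 12.4% hold TATAAA, 33.8% hold CCAAT and 32.7% hold GGGCGG. Sequence was at hand for 9 starts of 7 members. Among the other starts, TGACG occurred once, 46 bases before 1 of the 3 starts of Rgs8, and TATAAA in none of these windows.

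Total counts ran from 14314236 to 27146790 in IP and from 12803108 to 23948193 in input libraries. Aldh1l1 and the astrocyte glutamate transporter gene Slc1a3 exceeded their input level in the IP of all 46 mice with both libraries, and the neuronal genes Snap25 and Drd2 did so in 0 of 46. IP libraries still held neuronal RNA, with a median of 42.0 CPM (counts scaled to a common library size) for the dopamine receptor gene Drd2, against 89.2 CPM in input. Levels below are CPM of the library total, without adjustment for batch, and group values are from the 4 batches that hold more than 1 treatment. Those batches hold 16 dependent, 13 non-dependent and 15 naïve IP libraries and 16, 15 and 16 input libraries. Differences are log2 fold changes from edgeR's quasi-likelihood test with treatment-by-sex means and a batch term, called at a Benjamini-Hochberg adjusted p at or under 0.05 over all genes.

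Levels were divided by exon length, that is all annotated exons of a gene with overlaps counted once. On this scale Rgs20 had the highest level of the 9 genes in IP, with medians of 34.5 CPM per kb in dependent, 36.3 in non-dependent and 40.1 in naïve mice. Rgs2 followed with 29.1, 34.3 and 39.2 CPM per kb in dependent, non-dependent and naïve mice. Rgs10 and Rgs4 came next, at 22.3 and 17.6 CPM per kb in dependent, 25.8 and 31.2 in non-dependent, and 32.9 and 31.3 in naïve mice. The libraries of each of these neighbours overlapped in range. In each treatment the fourth gene in the order did not overlap with the fifth. Rgs7 and Rgs14 came next, at medians of 5.26 to 8.79 CPM per kb, and in dependent mice the highest Rgs14 library (15.3 CPM per kb) was above the lowest of Rgs4 (11.8 CPM per kb). Rgs8 and Rgs6 lay lower still, between 2.90 and 3.84 CPM per kb, and Rgs16 was lowest, at 0.374 to 0.530 CPM per kb.

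Input had another order. Rgs2 was highest there, with medians of 108 CPM per kb in dependent, 104.5 in non-dependent and 146 in naïve mice, followed by Rgs10 (74.2, 82.0 and 104) and Rgs4 (47.1, 69.5 and 91.0). These 3 overlapped with their neighbours and not with the next gene, Rgs14, at 19.8, 22 and 17.01 CPM per kb in dependent, non-dependent and naïve mice. Rgs20 ranked just below Rgs14 in input in all 3 treatments, at 13.8 to 15.2 CPM per kb. Rgs6 and Rgs16 were lowest, with ranges apart from those of the gene above them. Rgs16 had 0 counts in 1 IP library, of a naïve mouse, and at most 4.90 CPM in any, so its differences are the least precise of the 9.

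The comparison of IP with input asks which RGS transcripts were more or less abundant in the purified RNA than in the tissue. As a scale, the median log2 fold change was 3.11 for 15 astrocyte markers and -1.31 for 12 neuron markers. It was -1.13 for 14 medium spiny neuron markers and -1.18 for 12 microglia markers. How much of a member's IP level came from RNA of other cells was not tested. Rgs20 and Rgs6 were higher in IP and 6 genes were lower, while Rgs7 did not pass. The mean level of Rgs20 was 157 ± 20.7 CPM in IP, against 60.9 ± 13.4 CPM in input (SD over 46 mice). Every IP library of Rgs20 (118 to 208 CPM) lay above every input library (32.3 to 89.4 CPM), and the log2 fold change was 1.54 ± 0.04 (SE, adjusted p = 8.6e-41). Rgs6 had a mean of 29.9 ± 6.51 CPM in IP, against 12.8 ± 2.92 CPM in input, with ranges of 14.9 to 45.3 and 8.43 to 20.8 CPM. Its libraries overlapped in range, yet IP was above the input of the same mouse in 46 of 46 mice (log2 fold change 1.38 ± 0.06, adjusted p = 5.98e-30).

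Rgs2 was the most depleted, with means of 130.5 ± 27.6 CPM in IP against 444.5 ± 107 CPM in input, a log2 fold change of -1.59 ± 0.04 with no overlap between the fractions (adjusted p = 1.11e-39). Rgs10 followed at -1.43 ± 0.04 (50.02 ± 13.4 CPM in IP against 151 ± 41.7 CPM in input). Rgs4 and Rgs14 each gave -1.24, with SE 0.04 and 0.05, and Rgs8 gave -1.01 ± 0.04. For these 5 genes IP exceeded input in 0 of 46 mice. Rgs16 was lower by a smaller margin (-0.64 ± 0.16, adjusted p = 0.000233), and its IP exceeded the input in 15 of 46 mice. Rgs7 had means of 41.7 ± 10.98 CPM in IP against 49.45 ± 15.04 CPM in input, with a log2 fold change of -0.06 ± 0.04 (adjusted p = 0.168) and a higher IP in 14 of 46 mice. Counts of mice compare CPM of the library total, whereas the fit rescales libraries further (TMM). By CPM the median log2 IP over input of Rgs7 was -0.27. Thus 8 of 9 members passed in this comparison, where 78.5% of 21743 genes did.

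**Figure D1:**
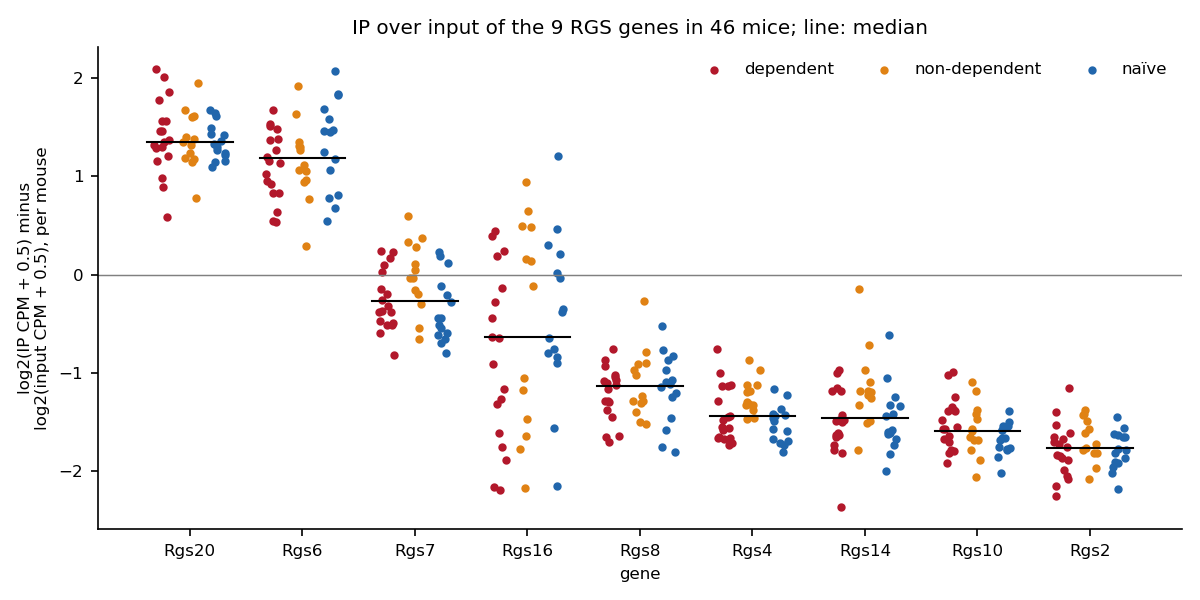
Log2(CPM + 0.5) in IP minus that in input for each of the 9 genes, 1 point per mouse (46 mice), coloured by treatment, with a black line at the median and a grey line at 0 for equal CPM. Rgs20 and Rgs6 sit above 0 in 46 of 46 mice, Rgs2, Rgs4, Rgs8, Rgs10 and Rgs14 below 0 in all of them, and Rgs7 and Rgs16 on both sides.

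The fractions of Rgs20 need a further value. The gene Atp6v1h, a vacuolar proton pump subunit, overlaps Rgs20 on the opposite strand, over a length that was not measured. Atp6v1h had 99.4% as many counts over all libraries. Whether reads were assigned by strand is not given in the sources used here, so reads from the overlap may not have been told apart. For Atp6v1h the IP exceeded the input in 4 of 46 mice, with medians of 92.8 CPM in IP and 129 CPM in input, while Rgs20 was higher in 46 of 46. No gene that overlaps one of the other 8 members had more than 0.529% of that member's counts.

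Rgs4, which acts on Gi, Go and Gq and is abundant in striatal neurons, was the gene that differed most between treatments. In IP its lowest, median and highest libraries were 36.6, 54.4 and 92.3 CPM in dependent mice, 55.0, 96.6 and 138 CPM in non-dependent mice, and 65.3, 96.8 and 141 CPM in naïve mice. Dependent mice lay low as a group, and their range overlapped with both others. In input the values were 118, 146 and 191 CPM in dependent, 135, 215 and 314 CPM in non-dependent, and 211.5, 282 and 385 CPM in naïve mice. Every dependent input library was below every naïve one, and the non-dependent libraries spanned the space between them.

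The fitted Rgs4 difference of dependent from naïve mice was -1.0 ± 0.11 in IP (2-fold lower) and -0.91 ± 0.12 in input (1.88-fold lower). Batches J, K and L hold both groups. In IP, dependent and naïve libraries of Rgs4 did not overlap within any of them, for example 42.0 to 52.8 CPM in 4 dependent mice and 65.7 to 123 CPM in 4 naïve mice of batch J. In input the within-batch log2 differences were -0.85 in J, -0.95 in K and -0.95 in L, again with no overlap in any. The dependent mice of batches C and G were left out of the treatment fits with a batch term. They had 54.75 and 43.05 CPM in IP and 153 and 118.5 CPM in input, all inside the range of the other dependent mice. With the markers of neurons and medium spiny neurons of the same library as a covariate the differences were -0.88 in IP and -0.89 in input, both still called. In batches J and K alone the input call was lost (-0.95).

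Between dependent and non-dependent mice, Rgs4 fell as well. The log2 fold change was -0.67 ± 0.10 in IP (adjusted p = 0.000207) and -0.52 ± 0.10 in input (adjusted p = 0.00691). In IP it was -0.92 within batch J, -0.82 within K and -0.53 within I. Dependent and non-dependent IP libraries of Rgs4 did not overlap in J and K and did in I, where 7 dependent mice ran from 55.7 to 92.3 CPM and 7 non-dependent mice from 74.6 to 138 CPM. In input the within-batch values were -0.46 in I, -0.68 in J and -0.41 in K. Batches J and K alone, with 6 dependent and 6 non-dependent mice, gave -0.88 in IP and -0.62 in input and no call in either fraction, and the input call was also lost without batch I (-0.60) or without batch J (-0.45). Between non-dependent and naïve mice the estimates were -0.33 ± 0.12 in IP (adjusted p = 0.265) and -0.39 ± 0.13 in input (adjusted p = 0.287), below 0 in both batches that hold these groups.

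**Figure D2:**
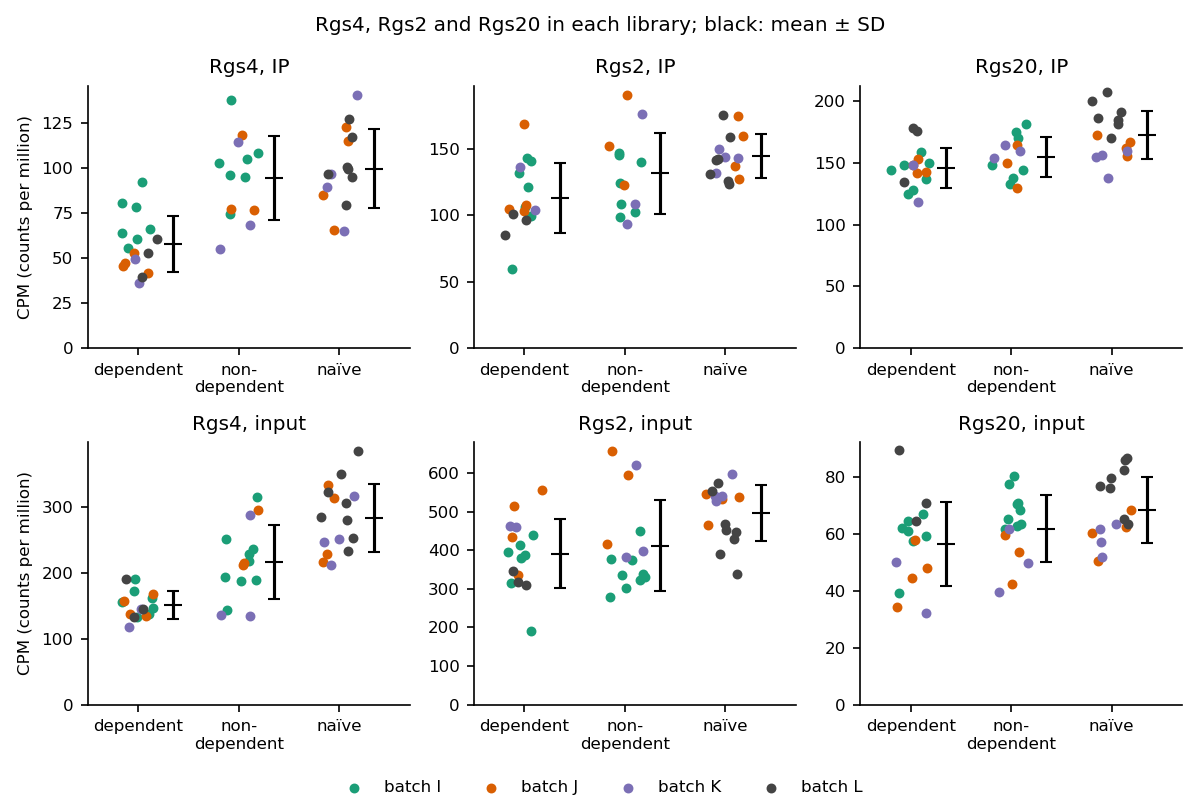
CPM of Rgs4, Rgs2 and Rgs20 in each library of batches I to L, IP above and input below, by treatment and coloured by batch, with the mean ± SD in black. Rgs4 of dependent mice lies low in both fractions, and in input its highest dependent library (191 CPM) is below the lowest naïve one (211.5 CPM).

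Of the other R4 genes, Rgs2, the regulator that acts mainly on Gq, was lower in the IP of dependent than of naïve mice. Its lowest, median and highest IP libraries were 59.8, 105.5 and 169 CPM in dependent, 93.7, 124 and 191 CPM in non-dependent, and 124, 142 and 176 CPM in naïve mice. The 3 ranges overlapped, with dependent mice reaching lowest. The log2 fold change of dependent from naïve mice was -0.39 ± 0.11, and within batches it was -0.33 in J, -0.25 in K and -0.59 in L, where the groups did not overlap. The call was lost without batch L (-0.25) or J (-0.46), on J and K alone (-0.28) and with the neuronal marker covariate (-0.36). In input Rgs2 had medians of 393 CPM in dependent, 379 CPM in non-dependent and 530.3 CPM in naïve mice, and a log2 fold change of -0.30 ± 0.12 from naïve mice that did not pass.

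Rgs8, a striatal and cerebellar member that acts on Gi and Go, had IP medians of 31.3 CPM in dependent, 37.0 CPM in non-dependent and 35.8 CPM in naïve mice. The estimate against naïve mice was -0.29 ± 0.12 in IP and -0.19 ± 0.10 in input, and neither passed. Rgs16, a low and inducible member, had IP medians of 1.24 CPM in dependent, 0.966 CPM in non-dependent and 0.874 CPM in naïve mice. In input its medians were 2.89, 2.46 and 1.10 CPM in dependent, non-dependent and naïve mice. Its estimates against naïve mice were 0.65 ± 0.41 in IP and 0.49 ± 0.29 in input, above 0 where most members were below, and did not pass.

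The R7 genes showed no call between treatments. Rgs6 had IP medians of 29.04 CPM in dependent, 31.1 CPM in non-dependent and 33.7 CPM in naïve mice, and estimates against naïve mice of -0.13 ± 0.12 in IP and -0.09 ± 0.14 in input. Rgs7 had IP medians of 42.9 CPM in dependent, 45.9 CPM in non-dependent and 35.3 CPM in naïve mice. Its IP estimate was 0.32 ± 0.11 for non-dependent against naïve mice (adjusted p = 0.205) and 0.14 ± 0.10 for dependent against naïve mice, while in input they were -0.03 ± 0.10 and -0.01 ± 0.09. Their membrane anchor Rgs7bp was lower in the IP of dependent than of naïve mice (log2 fold change -0.36 ± 0.10, called). In input Rgs7bp gave -0.34 ± 0.10 without a call, and the obligate partner Gnb5 gave -0.17 ± 0.07 in IP and -0.18 ± 0.09 in input, also without a call.

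Rgs10, an R12 member known from microglia as well as neurons, had IP medians of 38.1 CPM in dependent, 44.2 CPM in non-dependent and 56.4 CPM in naïve mice. In input they were 127, 140 and 177 CPM in dependent, non-dependent and naïve mice. The estimates against naïve mice, -0.41 ± 0.14 in IP and -0.44 ± 0.13 in input, were as large as that of Rgs2 but did not pass. Both were below 0 within all 3 batches. A call was gained in IP without batch I (-0.45) or with no count filter (-0.41), and in input without batch I (-0.46), with DESeq2 (-0.43) or with the neuronal marker covariate (-0.46). Rgs14 gave -0.21 ± 0.12 in IP and -0.22 ± 0.07 in input against naïve mice, neither called. Its input estimate for non-dependent against naïve mice was -0.32 ± 0.08 (adjusted p = 0.125), the smallest p of the members in that comparison.

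Rgs20, the RZ member, had IP libraries of 118, 146 and 178 CPM (lowest, median, highest) in dependent, 130.0, 154 and 182 CPM in non-dependent, and 138, 170.0 and 208 CPM in naïve mice. The ranges overlapped widely, and the spread within a group was small. The log2 fold change of dependent from naïve mice was -0.22 ± 0.06 in IP, called, with within-batch values of -0.16 in J, -0.20 in K and -0.22 in L. The call was lost without batch J (-0.23), K (-0.23) or L (-0.21), in J and K alone (-0.18), and with no count filter. In input the estimate was -0.31 ± 0.10, not called, and within batches it ran from -0.53 to -0.04. Against non-dependent mice the estimates were -0.11 ± 0.05 in IP (adjusted p = 0.406) and -0.18 ± 0.09 in input (adjusted p = 0.734).

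In total, 3 of 9 members were called between dependent and naïve mice in IP (Rgs4, Rgs2 and Rgs20, all lower), where 4.67% of 19979 genes were. In input 1 of 9 was called, Rgs4, against 2.38% of 19691 genes. Rgs4 was also the only member whose dependent and naïve ranges did not overlap, and the share of all genes with ranges apart is not given here. Since the set was chosen with this contrast known, these counts are given without further reading. The median log2 fold change of the 9 genes was -0.22 in both fractions, against 0.00 over all genes. Between dependent and non-dependent mice Rgs4 alone was called, in IP (1.54% of all genes) and in input (0.355% of all genes), and the estimates below 0 were 9 of 9 in IP, with a median of -0.17, and 6 of 9 in input, with a median of -0.07. The dependent mice are the same in both comparisons. Between non-dependent and naïve mice edgeR called 0 of 9 members in IP (0.44% of all genes) and 0 of 9 in input (0.122% of all genes). At an unadjusted p under 0.05 there were 3 members in each fraction, beside 2041 of 19979 genes in IP and 1411 of 19691 in input, and DESeq2 and limma voom also called 0.

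**Figure D3:**
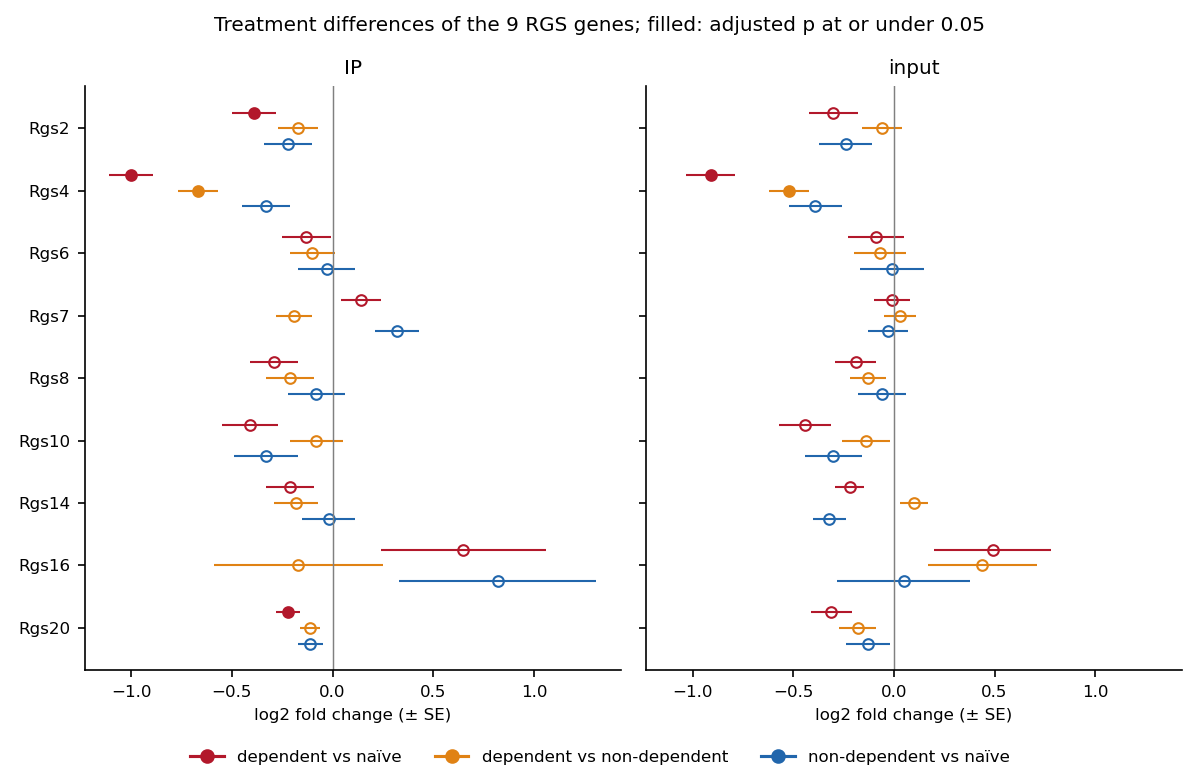
Log2 fold change ± SE of the 9 genes in IP and input for dependent against naïve, dependent against non-dependent and non-dependent against naïve mice, with filled points called. Rgs4 is the member farthest below 0, at -1.0 in IP and -0.91 in input against naïve mice, and the wide bars belong to Rgs16.

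Whether a treatment difference was larger in IP than in input was tested with a block for each of the 44 mice that gave both libraries in these batches. For dependent against naïve mice the difference of differences (IP minus input) was -0.08 ± 0.08 for Rgs4, -0.12 ± 0.09 for Rgs2 and 0.08 ± 0.11 for Rgs20. The Rgs4 value lies within about 1 SE of 0, so the lower Rgs4 was not shown to belong more to the purified RNA than to the tissue. edgeR called 0 of 9 members here, where 0.356% of all genes were called, and 0 had an unadjusted p under 0.05, beside 1766 of 21659 genes. For dependent against non-dependent mice edgeR again called 0 of 9 (0.0923% of all genes), with 2 members at an unadjusted p under 0.05, Rgs14 (-0.27 ± 0.12) and Rgs16 (-0.71 ± 0.35), beside 1768 of 21659 genes. limma voom called 0 members in both.

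Markers of other cells moved with some of these differences. In IP, 3 of 14 medium spiny neuron markers were lower in dependent than in naïve mice, Adora2a (-0.56 ± 0.14), Bcl11b (-0.33 ± 0.10) and Adcy5 (-0.37 ± 0.11), and the median of the list was -0.33. Their summed level ran from 1883 to 5167 CPM in dependent, 3398 to 5117 CPM in non-dependent and 2978 to 5201 CPM in naïve IP libraries. In input 14 of the 14 did not pass, with a median of -0.22, and the sums ran from 5240 to 12450, 7325 to 12770 and 7570 to 14780 CPM in dependent, non-dependent and naïve mice. All 12 general neuron markers did not pass in either fraction against naïve mice, with medians of 0.02 in IP and 0.07 in input. Between dependent and non-dependent IP, Adora2a (-0.51 ± 0.13) and the neuronal enolase gene Eno2 (-0.28 ± 0.07) were lower, and with the marker covariate Rgs4 gave -0.47 in IP and -0.48 in input, both still called. None of the markers in these lists was at 0 counts in any group. Apart from the covariate values above, the part of the marker shift in the results was not tested, and in bulk RNA fewer cells of a type and less RNA per cell cannot be told apart. Microglia markers, given because Rgs10 is known from microglia, had a median of 0.37 in IP against naïve mice, and of -0.01 in input, with 12 of 12 not passing in either. Between dependent and non-dependent IP, 3 of the 12 were higher, C1qc (0.83 ± 0.19), C1qa (0.75 ± 0.17) and C1qb (0.69 ± 0.18), where Rgs10 gave -0.08 ± 0.13. Between the inputs of these groups 1 was higher, C1qa (0.44 ± 0.11), and 1 lower, P2ry12 (-0.39 ± 0.09), where Rgs10 gave -0.14 ± 0.12. Other called markers against naïve mice in IP were Gfap (0.98 ± 0.18), Gjb6 (0.72 ± 0.13) and Fgfr3 (0.26 ± 0.08) of 15 astrocyte markers, Cnp (-0.32 ± 0.09) of 10 oligodendrocyte markers, Pdgfrb (-0.52 ± 0.11) of 9 pericyte and smooth muscle markers tested, and the immediate early genes Dusp1 (0.72 ± 0.15) and Ier2 (0.77 ± 0.23) of 12. In input they were Gfap (1.03 ± 0.19), Gjb6 (0.76 ± 0.13) and the endothelial gene Cldn5 (-0.47 ± 0.11). These lists did not move as groups in IP. There, 12 of 15 astrocyte markers (median -0.05) and 10 of 12 immediate early genes (median 0.01) did not pass. The IP medians were -0.14 for oligodendrocyte and -0.11 for pericyte and smooth muscle markers. In input the medians were 0.05 for astrocyte and -0.16 for endothelial markers. The part of these markers in the differences of the members was not tested.

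Batch took an unequal part of the spread of the members, above that of the median gene for some and below it for others. Of the spread of log2 CPM within treatment and sex, batch means took 93.8% for Rgs14 in input, more than for 99.7% of 15742 genes with a mean of at least 1 CPM, and 82.4% in IP. The median gene had 41.6% in input and 32.5% in IP. Input libraries of Rgs14 ran from 79.1 to 127.5 CPM in batches I and L and from 31.2 to 59.2 CPM in batches J and K, without overlap, and the mice of C and G had 31.5 and 36.8 CPM. In IP they ran from 23.6 to 65.0 CPM in I and L, and from 9.90 to 34.97 CPM in J and K, with 10.9 and 10.3 CPM in C and G. Rgs7 followed the same split in input, from 48.2 to 78.5 CPM in I and L against 20.7 to 48.7 CPM in J and K (74.7% of its spread).

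Rgs8 and Rgs16 also had over 60% of their input spread between batches (61.9% and 61.6%), while Rgs4 had 14.8% and Rgs6 1.95%. In IP the share was lowest for Rgs2 (11.4%). Naïve mice are lacking in batch I and non-dependent ones in batch L, so group medians of Rgs14 and Rgs7 mix levels that differ by batch. Within batches, the Rgs14 difference of non-dependent from naïve input was -0.31 and -0.15 in the 2 batches with both groups, beside -0.32 from the fit.

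**Figure D4:**
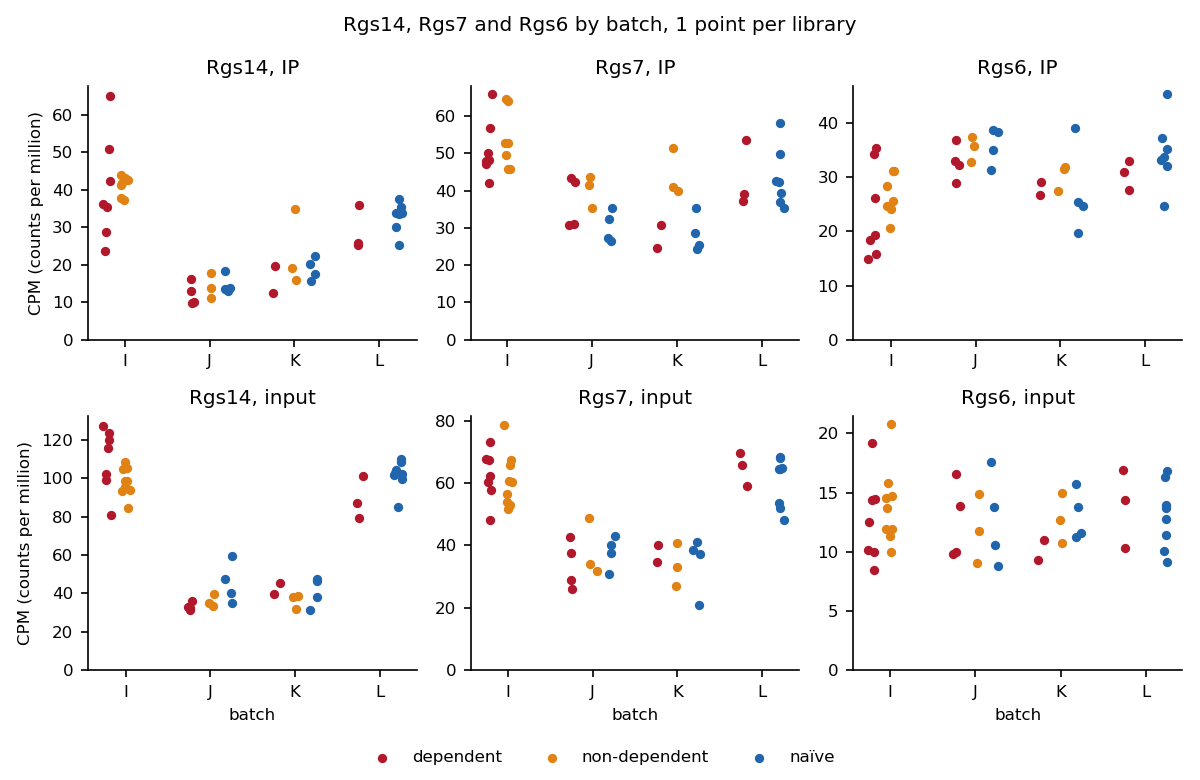
CPM of Rgs14, Rgs7 and Rgs6 in each library of batches I to L, IP above and input below, coloured by treatment. Rgs14 input is 79.1 CPM or more in I and L and 59.2 CPM or less in J and K, whereas Rgs6 input overlaps between all 4 batches.

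No member was called between female and male mice. edgeR called 0 of 9 in IP (0.0501% of all genes) and 0 of 9 in input (0.0508% of all genes), DESeq2 and limma voom also called 0, and 3 members had an unadjusted p under 0.05 in each fraction, beside 1047 of 19979 genes in IP and 1006 of 19691 in input. The largest of these estimates in IP were Rgs16 at -0.84 ± 0.32 (adjusted p = 0.787), Rgs2 at 0.22 ± 0.08 (adjusted p = 0.757) and Rgs4 at 0.20 ± 0.09 (adjusted p = 0.878). Rgs4 in input gave 0.24 ± 0.08 (adjusted p = 0.795). The difference between dependent and naïve mice was not shown to differ by sex. In IP 0 of 9 members were called for it (0% of all genes) and 2 had an unadjusted p under 0.05, beside 627 genes. In input 0 of 9 were called (0% of all genes) and 0 had such a p, beside 540 genes.

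The first of the 2 in IP was Rgs4, where the female difference minus the male difference was -0.44 ± 0.20 (unadjusted p = 0.0309, adjusted p = 1). Its IP level averaged 59.8 ± 18.4 CPM in dependent females and 114.5 ± 16.2 CPM in naïve females, and 55.9 ± 13.4 CPM in dependent males and 83.3 ± 14.1 CPM in naïve males (SD, n = 8, 8, 8 and 7). Dependent mice of both sexes had similar mean levels, and the mean of naïve females was above that of naïve males. The naïve ranges overlapped, at 95.4 to 140.6 CPM in females and 65.3 to 101 CPM in males. In input the same Rgs4 value was -0.22 ± 0.20. The second was Rgs16 at 1.64 ± 0.77 (unadjusted p = 0.0404, adjusted p = 1), a gene near the limit of these libraries.

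How far the IP level of a gene followed the input level of the same mouse was measured after removing treatment-by-sex and batch means. In 44 mice Rgs10 gave a Pearson r of 0.816 and a Spearman rho of 0.797 (permutation test, two-sided, adjusted p = 4.5e-05 for both), and r was 0.768 without the 2 mice farthest out in input. Rgs4 gave r = 0.778 and rho = 0.773, and Rgs2 gave r = 0.766 and rho = 0.709, both with an adjusted permutation p of 4.5e-05, and 0.718 and 0.673 without such mice. The smallest p that the 100000 permutations can give is 1e-05 before adjustment over the 18 relations of the family. Rgs8 (r = 0.463), Rgs6 (0.365) and Rgs16 (0.344) also passed, with adjusted permutation p of 0.00393, 0.0331 and 0.0431. Rgs14 (0.239), Rgs7 (0.218) and Rgs20 (-0.026) did not, with adjusted permutation p of 0.194, 0.216 and 0.917. With batch means left in, Rgs14 (r = 0.876) and Rgs7 (0.706) passed and Rgs6 (0.231) did not, with adjusted permutation p of 2e-05, 2e-05 and 0.159. The IP and input of a mouse share its tissue sample. The permutation p treats the residuals as free values, without allowance for the means removed, so it may be too small. Rgs6 and Rgs16 lie near the threshold, and whether they pass with such an allowance was not tested.

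The same IP residuals were set against the mean of the neuron markers of the IP library. Rgs8 gave r = 0.690 and rho = 0.547, Rgs4 gave r = 0.581 and rho = 0.619, and Rgs14 gave r = 0.5004 and rho = 0.401, with adjusted permutation p for r of 4.5e-05, 0.000144 and 0.00171 in 44 mice. Without the 2 mice farthest out r was 0.601, 0.518 and 0.367. The other 6 members did not pass, among them Rgs10 (r = 0.003) and Rgs20 (r = 0.224). Values share the library on both sides here.

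**Figure D5:**
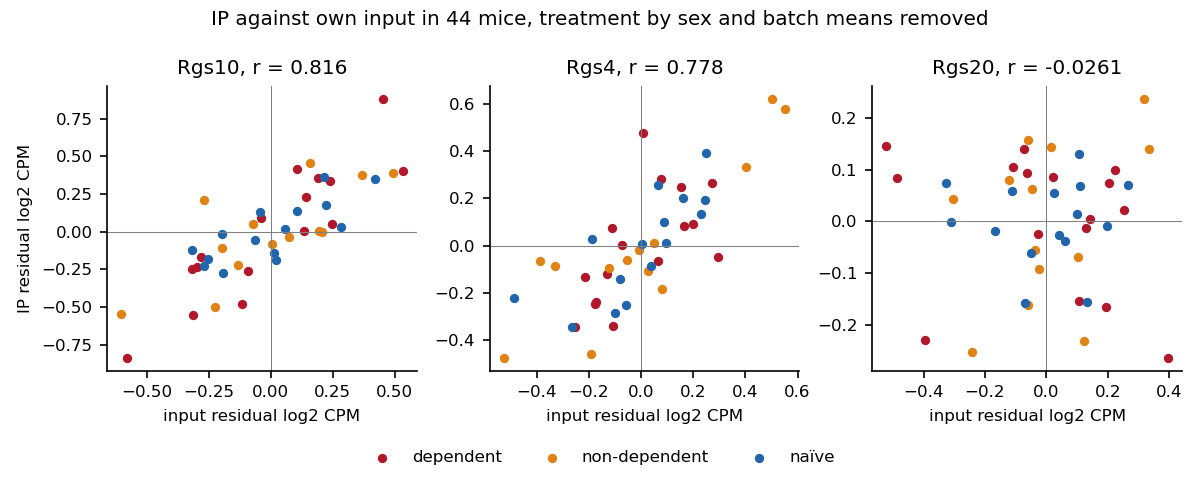
IP residual against input residual of log2 CPM in 44 mice for Rgs10, Rgs4 and Rgs20, with treatment-by-sex and batch means removed and points coloured by treatment. Rgs10 and Rgs4 rise along the diagonal (r = 0.816 and 0.778) and Rgs20 shows no slope (r = -0.026).

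The members did not vary as a block. Over the 36 pairs of members, r of the residuals ran from -0.516 to 0.582 in 44 IP libraries (median 0.03) and from -0.442 to 0.585 in 47 input libraries (median 0.02). Of genes with a mean of at least 5 CPM (11245 in IP, 11486 in input), those most like Rgs4 were Atp2b1 (r = 0.757), Scn4b and Trnp1 in IP and Ppp3ca (0.776), Arpp19 and Rasgrp2 in input. Those most like Rgs8 in input were Lzts3 (0.867), Drd2 (0.862) and Adcy5 (0.853), and in IP Isyna1, Gnal and Camk2b. Pou3f1 was first for Rgs2 in IP (0.694) and in input (0.712). Rgs10 was most like Arhgdib (0.755), Crym and C1qb in IP and Fgf3, Crabp1 and Washc3 in input.

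Rgs14 was most like Map2k1 (r = 0.803) and Pkd1 in IP and Asphd2, Dcaf4 and Prkcz in input. Rgs7 had Mpv17l (0.772), Nptn and Nab1 in IP and Yipf2 (0.807), Pcmt1 and Usp14 in input. Rgs20 had Nptn (0.706), Pmpca and Kctd17 in IP and Syndig1l (0.664) and Arpp19 in input. Rgs6 had Shisa4 (0.744), Sv2b and Naaa in IP and Arpc3 (0.601), D730003I15Rik and 2900026A02Rik in input. These correlations describe libraries that also share depth and composition. Rgs16 was too low to be compared.

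Other genes of G protein signalling were mostly without a call between treatments, as were genes at large. Against naïve mice, 4.67% of 19979 genes were called in IP and 2.38% of 19691 in input. At an unadjusted p under 0.05 with edgeR there were 3281 and 2730 of these genes. Against naïve mice in IP, 0 of 10 other Rgs genes tested, 0 of 13 G alpha genes, 0 of 14 other genes with an RGS homology domain and 0 of 6 GoLoco or Ric8 genes were called by edgeR, with 2, 2, 4 and 0 at an unadjusted p under 0.05, and DESeq2 and limma voom also called 0. Of 4 partners and anchors of the R7 type 1 was called, Rgs7bp. In input the call among these lists was Gpsm1, a GoLoco protein that binds Gi alpha, lower at -0.44 ± 0.12. The other lists had 1 to 4 genes at an unadjusted p under 0.05 there, and DESeq2 called 1 R7 partner. DESeq2 also called 1 GoLoco or Ric8 gene, while limma voom called 0 of 6. Rgs9, the R7 member most typical of striatal neurons, gave -0.31 ± 0.15 in IP and -0.31 ± 0.13 in input without a call. No gene of the 5 lists was called by edgeR between dependent and non-dependent or non-dependent and naïve mice in either fraction, with 0 to 3 genes of a list at an unadjusted p under 0.05. In those comparisons edgeR called 0.122% to 1.54% of all genes. DESeq2 called 1 other Rgs gene, 1 R7 partner and 1 gene with an RGS homology domain in IP, and limma voom called 1 R7 partner.

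Between IP and input the same lists divided. Of 11 other Rgs genes tested 2 were higher in IP and 6 lower. The lower ones included Rgs5 (-1.37 ± 0.07), Rgs9 (-1.24 ± 0.04) and Rgs17 (-1.15 ± 0.05). Of the R7 partners, Gpr158 (-1.17 ± 0.04), Rgs7bp (-1.10 ± 0.03) and Gnb5 (-0.72 ± 0.04) were lower, and 1 was higher. G alpha genes split evenly, 6 higher and 6 lower of 13. Gna13 was higher at 2.40 ± 0.04 and Gnai2, a substrate of many RGS proteins, at 1.68 ± 0.04, while Gnai1 was lower at -1.14 ± 0.03. Of 14 genes with an RGS homology domain 7 were higher, among them the guanine nucleotide exchange factor Arhgef12 (1.25 ± 0.04) and Snx13 (0.57 ± 0.04), and 4 lower, among them the receptor kinase Grk5 (-0.98 ± 0.07). Of 6 GoLoco or Ric8 genes 4 were lower, among them Rap1gap (-0.80 ± 0.04), Ric8b (-0.79 ± 0.04) and Gpsm1 (-0.74 ± 0.06). The median over all genes was -0.16, and of 21743 genes 7301 were higher and 9777 lower.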

How the data were processed

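The values are gene counts as the authors deposited them, whole numbers in 1 table of 95 libraries. Per the submitters' processing notes, reads were handled with FastQC 0.11.9, Trimmomatic 0.39 and STAR 2.7.10b on GRCm38. The counting program and its use of strand are not given in the sources used here. The replicate is the mouse. The 9 members, the gene lists and the tests were chosen with earlier results of these data known.

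Counts were tested in R 4.3.3 with edgeR 4.0.16 (TMM, filterByExpr with a minimum count of 10 and total of 15, robust quasi-likelihood fit), 1 fit per fraction over batches I, J, K and L, with treatment-by-sex means and a batch term. Female and male differences were given equal weight. Batches C and G hold 1 dependent mouse each and were left out of these fits. Their mice are in the comparison of IP with input over 46 mice and in the alternative with no batch term. IP and input of a mouse are 1 tissue sample divided, per the labels, so the mouse was a block in comparisons of fractions (46 mice, or 44 by treatment), with the dispersion estimated inside glmQLFit. P-values were adjusted by Benjamini-Hochberg over all genes and called at 0.05. The treatment fits and the fit of IP against input were also run on counts simulated with the same dispersion for every gene and no batch effect. How the fits handle batch was not tested by these counts. CPM are counts over the library total, and correlations used log2(CPM + 0.5) with 100000 permutations.

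Alternatives were DESeq2 1.42.0, limma 3.58.1 (voom), RLE normalization, no count filter, no batch term, fewer batches, a neuronal marker covariate, no block, and single mice left out. Named besides the members are up to 3 called genes per list and comparison with the smallest p and a mean of at least 1 CPM, the 3 genes most like each member with at least 5 CPM, and markers. Some of these genes are not reported here. Promoter windows are from RefSeq (GRCm38.p6).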

Additional observations from a re-analysis of the deposited data

Results flagged for a closer look

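Of 108 groups of 1 member, treatment, sex and fraction that were looked at, 7 held a single library far above the others, where chance gives about 5% of groups. Rgs2 had 657.5 CPM in the input of 1 non-dependent male of batch J, against 279 to 417 CPM in the others of that group. Rgs6 had 20.8 CPM in the input of 1 non-dependent male of batch I, against 10.8 to 14.9 CPM. Rgs7 had 58.3 CPM in the IP of 1 naïve female of batch L, against 28.6 to 42.7 CPM. Rgs8 had 52.5 CPM in the IP of 1 non-dependent female of batch I, against 26.1 to 38.3 CPM. Rgs16 had 3.65 CPM in the IP of 1 dependent male of batch L, against 0.318 to 1.58 CPM, and 4.25 CPM in the IP of 1 naïve male of batch L, against 0.566 to 1.97 CPM. Rgs20 had 178 CPM in the IP of 1 dependent female of batch L, against 122.5 to 149.6 CPM. In 4 of these 7 the library belongs to batch L.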

How the results depend on the processing

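Over 1323 values of a member under another setting, 1300 kept their side of the threshold, 14 lost a call, 9 gained one and 0 turned a called direction. Within those 1300, the sign changed in 89 values that were called under neither setting. The count for dependent against naïve IP, 3 members, was 1 in batches J and K only, without batch J and without batch L, 2 without batch K and with the neuronal marker covariate, and 4 without batch I. For dependent against non-dependent IP it was 0 in J and K only, and for non-dependent against naïve IP it was 1 with no count filter (Rgs4, -0.34). For dependent against naïve input it was 2 with DESeq2, with the neuronal marker covariate and without batch I (each adding Rgs10), and 2 with no batch term in all 6 batches and with no count filter (each adding Rgs20), and 0 in J and K only. For dependent against non-dependent input it was 0 in J and K only, without batch I and without batch J. The cause of these shifts was not tested. Settings with fewer batches also hold fewer mice, and among them calls were lost in some and gained without batch I. Rgs4 against naïve IP kept its call under all 16 alternatives, from -1.13 to -0.84. Rgs7 in IP against input gained a call under RLE (-0.12), which gave 9 called members against 8. Leaving out each non-dependent male IP mouse gave 3 to 3, 1 to 1 and 0 to 0 called members in the 3 IP treatment comparisons.

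Genes called over the whole table moved more. For dependent against naïve mice 933 in IP became 235 in J and K only, 294, 355 and 439 without J, K and L, and 1447 with no filter, and 469 in input became 17 in J and K only, 133, 281 and 95 without J, K and L, and 707 with DESeq2. For dependent against non-dependent mice 308 in IP became 0 in J and K only, 3 without I, 92 with no batch term, 118 with the marker covariate, 492 with DESeq2 and 684 with no filter, and 70 in input became 0 in J and K only and without I, 41 without J, 28 with no batch term, 111 with DESeq2 and 119 with no filter. For non-dependent against naïve mice 88 in IP ranged from 15 (J and K only) to 481 (no filter), and 24 in input from 8 to 77 under the same settings. Between the sexes 10 in IP became 6 in J and K only, 21 with DESeq2 and 96 with no filter, and 10 in input became 25 with no filter. For the treatment difference by sex 0 in IP (627 at an unadjusted p under 0.05 with edgeR) became 14 with DESeq2, 38 with no filter, 1 without I and 0 with limma voom, and 0 in input (540) became 1 with no filter and 0 with DESeq2 and limma voom. Without the mouse as a block, the pairing of IP with input gave 8 called members, as with it, and 0 and 0 for the difference of treatments between fractions, where 77 and 20 genes became 12 and 0. With batch means left in, IP followed input in Rgs14 (r = 0.876) and Rgs7 (0.706) with an adjusted permutation p of 2e-05 in 44 mice, which did not pass with those means removed, and Rgs6 (0.231, adjusted permutation p = 0.159) no longer passed. Against the neuron marker mean Rgs7 then also passed (0.504, adjusted permutation p = 0.000936). Rgs16 had the lowest counts of the 9 and the widest errors.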
